A study of Mus musculus with 2 samples.

Results

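The nuclear genes of the respiratory chain are the genes on the chromosomes of the nucleus that encode subunits of the mitochondrial complexes I to V. They were taken by name: protein-coding genes whose symbol begins with Nduf and a subunit letter, Sdha to Sdhd, or a symbol that begins with Uqcr, Cox4 to Cox8 or Atp5. The rule found 84 of the 21829 protein-coding genes outside the mitochondrial chromosome, 37 for complex I, 4 for complex II, 8 for complex III, 18 for complex IV and 17 for complex V (the ATP synthase). Genes were taken from the GENCODE M21 annotation and the rule used no measured value. It does not take in Ndufab1, whose symbol has another pattern, or cytochrome c1 (Cyc1). Open chromatin at these genes was read by DNase-seq, in which the enzyme DNase I cuts DNA that is not wrapped up, in the gastrocnemius (calf muscle) of adult male mice. The mice were B6CASTF1/J, an F1 hybrid of a C57BL/6 and a CAST strain, aged 18 to 20 months. The labels give 2 samples in 1 group, biological replicates 1 and 2, which share a donor label but not a biosample label, so it is not known whether both came from 1 animal. There was no treatment, control or other age, so no groups were compared and no test was run.

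Each complex does one step of respiration. Complex I takes electrons from NADH and complex II takes them from succinate, complex III passes them to cytochrome c, complex IV hands them to oxygen, and complex V makes ATP from the proton gradient. A few subunits of complexes I, III, IV and V are encoded by mitochondrial DNA, and all other subunits come from the nucleus, where the transcription factors NRF1, GABPA (an ETS factor), YY1 and the oestrogen-related receptors are known to act on many of their promoters. Several complex IV subunits have a second form that is made in heart and skeletal muscle.

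The files gave 131398 peaks of open chromatin in replicate 1 and 91567 in replicate 2, with 339656 and 234091 footprints, short stretches inside open chromatin where few cuts fall. The signal of a peak is in the authors' unit, whose scale is not stated, and depth is unknown. Because it is not stated whether the samples were scaled alike, a gene is compared between the replicates by its percentile, its rank among all genes with a promoter peak in that replicate. A promoter peak is a peak within 1000 bp of a start site of a protein-coding transcript. The tissue label was checked with marker genes: all 10 skeletal muscle markers had a promoter peak in both replicates, against 0 of 5 liver markers, 0 of 4 testis markers, and 2 and 1 of 8 heart markers. All 4 endothelial and all 4 fibroblast markers also had one, with median signals of 0.566 and 0.911 (endothelial) and 1.84 and 1.67 (fibroblast) in replicates 1 and 2. Of the macrophage markers 2 of 4 were open in each replicate, and of the adipocyte markers 3 and 2 of 5. Both alleles and all cells of the tissue are mixed in these values, so fewer cells with an open site and less cutting per cell cannot be told apart.

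Short stretches around motif matches are given first, as examples of the words that are compared below. The 5 stretches for NRF1, the nuclear respiratory factor, are from the member of each complex with the highest mean percentile among those with an NRF1 word under a footprint in both replicates. For this an overlap of 1 base was enough. In Ndufa7 the footprints of both replicates end inside the word, and 4 of its 8 bases were under that of replicate 2. In the other stretches all 8 were. They lie at chr17:33824555-33824582 (plus strand, where the start sites of Ndufa7 and Rps28 lie 10 bp apart), chr9:50603910-50603937 (minus strand, in an exon of its neighbour Timm8b), chr10:80406809-80406836 (minus strand, overlapping an exon of Uqcr11), chr5:115349102-115349129 (minus strand, upstream and in no annotated exon) and chr2:10080431-10080458 (minus strand, overlapping an exon of Atp5c1). All sequences were read from mm10 (GRCm38) and run 5′ to 3′ along the member's strand, and in this set the capitals mark the NRF1 word.
Ndufa7: ctcgcgagacCGCACGCGgtacccagga
Sdhd: cgctggggtgCGCACGCGcggtggcagc
Uqcr11: atcgccttcaCGCATGCGctatacgtct
Cox6a1: aggaacggggCGCATGCGcgctctcgct
Atp5c1: tgagctcccgCGCACGCGcactgagtcc

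Outside the capitals the 5 stretches are not alike as a whole, but the base after the word is c in all but Ndufa7. The base before it is g in Sdhd, Cox6a1 and Atp5c1. The next sets show the words of YY1 and of muscle promoters. The YY1 word, in capitals, lay in an annotated exon of Ndufc1, at chr3:51408915-51408943, on the minus strand and 35 bp into the gene.
Ndufc1: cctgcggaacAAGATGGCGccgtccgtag

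The next stretches are from promoters of muscle forms of complex IV subunits, with the match in capitals. The MEF2 match of Cox6a2 lay in chr7:128206396-128206425, on the minus strand and in no annotated exon. The TATAAA match of Cox8b lay in chr7:140900427-140900452, on the minus strand and 7 bp into the annotated gene. MEF2 is a factor of muscle genes, and a TATA box places the start of transcription, which was not tested for this match.
Cox6a2: gagaaagcccCTAAAAATAGccatccatgt
Cox8b: ccaccccagcTATAAAaagccccagc

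Nearly every member was open. In each replicate 81 of the 84 members (96.4%) had a promoter peak, and the same 81 did in both, beside 65.7% of all genes in replicate 1, 63.6% in replicate 2 and 62.4% in both. The 3 members with no promoter peak in either replicate were Cox4i2, Cox7b2 and Cox8c, all forms of complex IV subunits that have an open relative in this tissue. Cox4i2 (chromosome 2, 152754173 to 152765037) is known from lung, and Cox7b2 and Cox8c are known from testis. None of the 3 had a footprint within 1000 bp of its start site. Cox7b2 (chromosome 5, 71442824 to 71548205) held 1 weak peak inside the gene in both replicates, 45935 bp from its start site in replicate 1, with signals of 0.411 and 0.302. A footprint lay within 1000 bp of a start site in 81 of 84 members in each replicate and in both, beside 64.0%, 62.3% and 61.0% of all genes.

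The members' peaks were also high among open promoters. The median signal of the 81 members was 5.28 in replicate 1 and 5.36 in replicate 2, where the median over all genes with a promoter peak was 3.16 and 3.41. The members' median percentile was 72.5 and 70.2. In both replicates 63 of the 81 lay above percentile 50, 33 above 75 and 5 above 90, and 14 lay below 50. The members ranged from 0.843 to 11.7 in replicate 1 and from 0.978 to 12.3 in replicate 2. The order of members was close between replicates, with Spearman's rho of 0.954 over the 81 members, which share their library and is given as a description. Over all genes open in both it was 0.983. The strongest peak was at the same place in 80 of the 81 members (98.8%), and in 95.4% of all genes open in both.

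**Figure D1:**
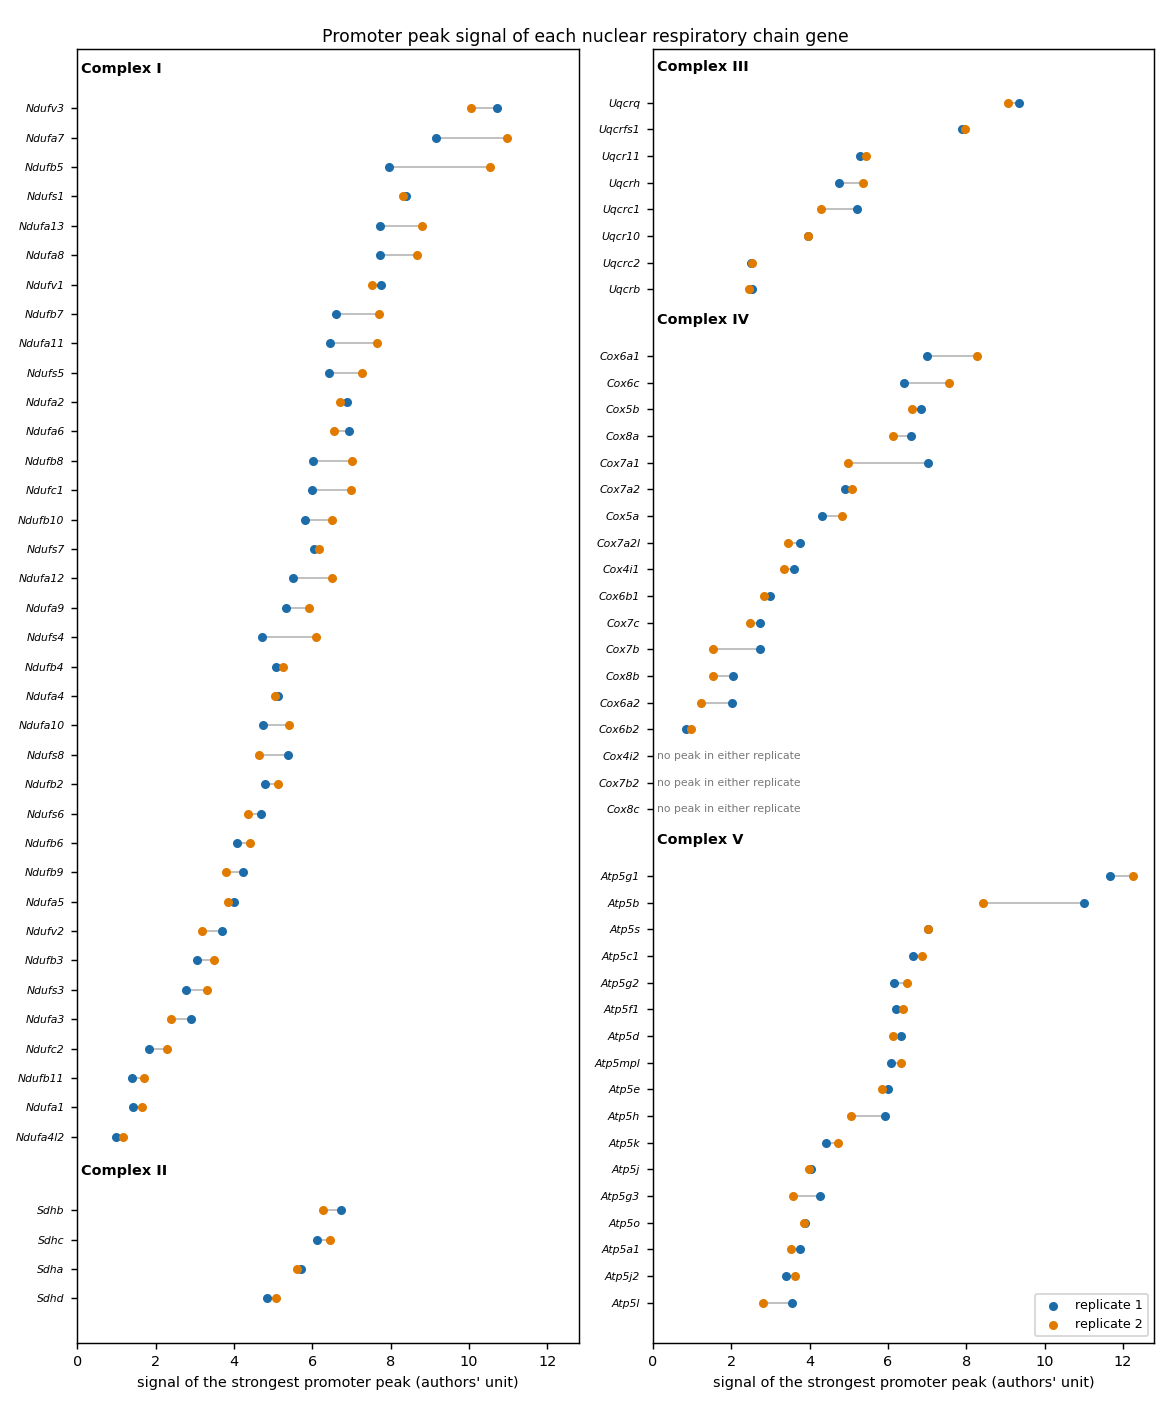
Signal of the strongest promoter peak (x axis, in the authors' unit), by complex, sorted by mean percentile, for 83 of the 84 members, of which 80 have points; 1 open member is not plotted. Blue points are replicate 1 and orange points replicate 2, joined by a grey line. Members run from Cox6b2 at 0.843 and 0.978 to Atp5g1 at 11.7 and 12.3, and 3 members of complex IV have no peak.

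Complex I, the NADH dehydrogenase, had all 37 members open, with a median signal of 5.39 in replicate 1 and 6.10 in replicate 2 (median percentile 73.7 and 76.4). Of the 37, 29 lay above percentile 50 in both replicates. Ndufv3, a small subunit of the NADH-binding arm (chromosome 17, 31520115 to 31531331), had the highest mean percentile of complex I, with signals of 10.7 and 10.1. Ndufa7, an accessory subunit (chromosome 17, 33824572 to 33838317), had 9.16 and 11.0. Ndufb5, an accessory subunit of the membrane arm (chromosome 3, 32736990 to 32751566), had 7.95 and 10.5. All 3 peaks also lay near the start site of another gene, Wdr4 for Ndufv3, Rps28 for Ndufa7 and Mrpl47 for Ndufb5, so their signal belongs to a site that both genes share.

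Complex II, the succinate dehydrogenase and the one complex with no subunit from mitochondrial DNA, had all 4 members above percentile 50 in both replicates and the narrowest range. Sdhb, the iron-sulfur subunit, had signals of 6.72 and 6.28, and Sdhc, a membrane anchor, 6.12 and 6.45. Sdha, the flavin-bearing catalytic subunit, had 5.70 and 5.60, and Sdhd, the other anchor, 4.84 and 5.07. In complex III, 6 of 8 members were above percentile 50 in both replicates, with medians of 4.98 and 4.83. Uqcrq had 9.35 and 9.06. Uqcrfs1, the Rieske iron-sulfur protein that passes electrons on to cytochrome c1, had 7.88 and 7.96, and Uqcr11 had 5.28 and 5.44. The core proteins Uqcrc1 and Uqcrc2 were apart, at 5.21 and 4.30 for Uqcrc1 and 2.50 and 2.53 for Uqcrc2.

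Complex V, the ATP synthase, had all 17 members open, with medians of 6.01 and 5.86, and 16 of 17 lay above percentile 50 in both replicates. The exception was Atp5l, at percentile 54.9 in replicate 1 and 42.7 in replicate 2. Atp5g1, which encodes the ring subunit c that protons turn (chromosome 11, 96068852 to 96075670), had the highest peak of all members in both replicates, 11.7 and 12.3, and lay at percentiles 99.0 and 98.3. Atp5b, the catalytic beta subunit (chromosome 10, 128083273 to 128090391), had 11.0 and 8.41, and Atp5s, a coupling factor that is not a structural subunit, 7.03 and 7.03. The 5 genes of the F1 head (Atp5a1, Atp5b, Atp5c1, Atp5d and Atp5e) had medians of 6.34 and 6.13 and the 12 others 5.18 and 4.89. The alpha subunit Atp5a1, which forms the F1 hexamer together with beta, was at 3.75 and 3.52.

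The peak of Atp5g1 lay wholly upstream of its 5'-most start site. It is given as the highest member, at chr11:96075701-96075980 (minus strand, 280 bases, in no annotated exon), with the 7 footprints of replicate 1 in capitals. They cover 103 of the bases, and 93 of these were also under a footprint of replicate 2.
Atp5g1: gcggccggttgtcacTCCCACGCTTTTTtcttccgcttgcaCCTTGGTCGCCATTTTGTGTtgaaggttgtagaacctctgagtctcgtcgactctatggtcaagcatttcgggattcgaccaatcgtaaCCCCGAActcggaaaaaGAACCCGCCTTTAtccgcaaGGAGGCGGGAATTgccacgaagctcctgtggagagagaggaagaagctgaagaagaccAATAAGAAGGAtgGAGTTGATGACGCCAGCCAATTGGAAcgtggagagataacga

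Complex IV, the cytochrome c oxidase, was the complex with the lowest medians, 3.77 and 3.44 over its 15 open members (median percentile 57.5 and 50.4), and the one with closed members. Of its 18 members 8 lay above percentile 50 in both replicates. The 15 open members include the testis form Cox6b2 and the muscle forms Cox6a2, Cox7a1 and Cox8b. No median was taken without these forms, so their part in the low medians was not tested. Cox6a1 had 6.99 and 8.28, Cox6c 6.40 and 7.56, and Cox5b, a zinc-binding subunit, 6.85 and 6.60. At the low end Cox6b2, the testis form of subunit 6b (chromosome 7, 4751792 to 4753094), had 0.843 and 0.978. The highest members of complex IV were Cox7a1 in replicate 1, at percentile 85.8 (Cox6a1 at 85.6), and Cox6a1 in replicate 2, at 88.9.

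**Figure D2:**
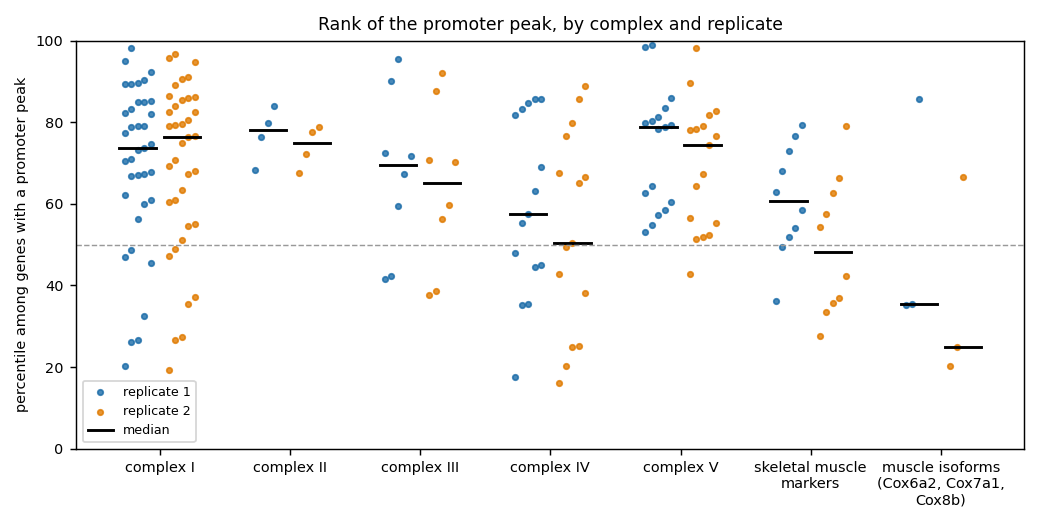
Percentile of the strongest promoter peak among all genes with a promoter peak in that replicate (y axis), for the open members of each complex, the 10 skeletal muscle markers and the muscle forms Cox6a2, Cox7a1 and Cox8b. Blue is replicate 1, orange replicate 2, black bars are medians and the dashed line is percentile 50; complex IV has medians of 57.5 and 50.4, and the muscle markers 60.7 and 48.3.

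Members with sister genes that encode forms of the same subunit were set side by side. Cox4i1, the common form of subunit 4, had 3.59 and 3.35 while Cox4i2 had no peak. Cox6b1 had 2.98 and 2.83 against 0.843 and 0.978 for Cox6b2, and the X-linked Cox7b had 2.74 and 1.55 while Cox7b2 had none. In each of these sets the common form was the higher in both replicates. Ndufa4, now counted by many as a complex IV subunit, had 5.12 and 5.05, and its relative Ndufa4l2, known from hypoxia, 0.995 and 1.16. The genes for the identical mature subunit c were all open, in the order Atp5g1 (11.7 and 12.3), Atp5g2 (6.15 and 6.50) and Atp5g3 (4.26 and 3.57) in both replicates.

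The muscle forms did not share one level. Cox6a2, the heart and muscle form of subunit 6a (chromosome 7, 128205435 to 128206387), had 2.03 and 1.23, below its common sister Cox6a1 at 6.99 and 8.28. Cox8b, the muscle form of subunit 8 (chromosome 7, 140898945 to 140900446), had 2.05 and 1.53, below Cox8a at 6.60 and 6.14. Cox7a1, the muscle form of subunit 7a (chromosome 7, 30184144 to 30186078), had 7.02 and 4.98, beside 4.91 and 5.08 for the common Cox7a2. It was thus above Cox7a2 in replicate 1 and slightly below it in replicate 2, so their order did not hold between replicates. Cox7a2l, a factor that joins complexes III and IV, had 3.77 and 3.44.

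**Figure D3:**
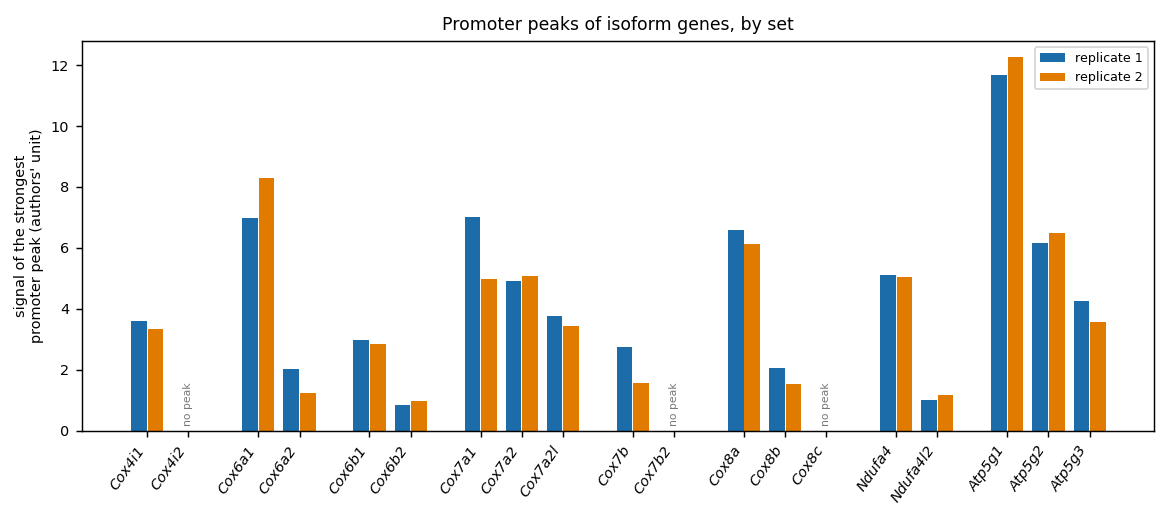
Signal of the strongest promoter peak (y axis, in the authors' unit) of genes that encode forms of the same subunit, in sets. Blue bars are replicate 1 and orange bars replicate 2; Cox4i2, Cox7b2 and Cox8c have no peak, and Cox6a2 and Cox8b lie below Cox6a1 and Cox8a.

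The muscle forms were also low in CpG pairs, as were Cox6b2 and Ndufa4l2, which are not muscle forms. In the 150 bases on either side of the peak centre, the ratio of observed to expected CpG pairs was 0.211 for Cox6a2, 0.280 for Cox8b and 0.427 for Cox7a1, where the median was 0.831 over the members and 0.796 over all genes open in both. Only 5 open members were below 0.5, the others being Ndufa4l2 at 0.215 and Cox6b2 at 0.494, beside 2114 of 13627 genes. The part of the replicate 1 peak that lies upstream of the start site is shown for the muscle forms and for the common forms of the same subunits, except subunit 7a, whose common form has most of its peak inside the gene. Capitals mark bases under a footprint of replicate 1. The stretches lie at chr7:128206388-128206520, chr5:115348982-115349160, chr7:140900447-140900560, chr19:7217617-7217780 (all minus strand) and chr7:30184021-30184143 (plus strand), and only that of Cox6a1 touches an annotated exon, of the noncoding Gm42903.
Cox6a2: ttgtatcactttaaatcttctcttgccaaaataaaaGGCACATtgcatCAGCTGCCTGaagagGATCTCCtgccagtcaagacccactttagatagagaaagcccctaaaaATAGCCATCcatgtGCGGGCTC
Cox6a1: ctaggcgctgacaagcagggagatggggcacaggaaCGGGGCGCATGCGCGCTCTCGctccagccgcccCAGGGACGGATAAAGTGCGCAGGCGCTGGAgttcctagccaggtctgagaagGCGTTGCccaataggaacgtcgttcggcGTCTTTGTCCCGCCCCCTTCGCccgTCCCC
Cox8b: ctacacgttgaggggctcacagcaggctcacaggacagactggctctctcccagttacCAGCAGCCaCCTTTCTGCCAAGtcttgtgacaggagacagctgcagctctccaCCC
Cox8a: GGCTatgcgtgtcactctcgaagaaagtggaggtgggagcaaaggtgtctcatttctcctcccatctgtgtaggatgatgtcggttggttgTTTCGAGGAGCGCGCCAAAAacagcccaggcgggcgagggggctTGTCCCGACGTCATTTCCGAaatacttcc
Cox7a1: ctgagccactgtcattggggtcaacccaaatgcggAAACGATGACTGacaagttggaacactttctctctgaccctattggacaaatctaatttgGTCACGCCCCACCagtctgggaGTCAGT

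The difference can be read in the letters. The stretch of Cox6a2 holds 1 CpG in 133 bases and that of Cox8b 1 in 114, where Cox6a1 has 18 in 179 and Cox8a 11 in 164. Cox7a1 has 3 in 123. Of the bases in capitals, 3 of 41 in Cox6a2, 4 of 24 in Cox8b and 14 of 31 in Cox7a1 were also under a footprint of replicate 2, against 80 of 85 in Cox6a1 and 32 of 44 in Cox8a. The footprints of the common forms were thus found again in replicate 2 to a larger part, with higher peaks than those of Cox6a2 and Cox8b.

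Of the 5 members whose percentile differed most between replicates, all were lower in replicate 2. They were Cox7b (percentile 44.9 and 25.1), Cox7a1 (85.8 and 66.7), Cox6a2 (35.2 and 20.3), Atp5l (54.9 and 42.7) and Uqcrc1 (71.8 and 59.8). Cox8b moved the same way, from 35.4 to 24.8. In all, 57 of the 81 members (70.4%) had a lower percentile in replicate 2 and 24 a higher one, where 60.0% of all genes open in both had a lower one. Percentiles are ranks among 14340 genes in replicate 1 and 13876 in replicate 2, so genes open in 1 replicate alone also move them. The skeletal muscle markers were also lower in replicate 2: all 10 had a lower percentile there, with a median of 60.7 in replicate 1 and 48.3 in replicate 2 and signals from 2.10 to 6.06 and from 1.71 to 6.47. All 4 fibroblast markers were lower there too, and all 4 endothelial markers were higher, Cdh5 for example at percentiles 11.7 and 17.2. The part of the markers' change in these differences was not tested.

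The 3 members on the X chromosome were low. Ndufa1 had 1.44 and 1.64, Ndufb11 1.41 and 1.69 and Cox7b 2.74 and 1.55, so that their median was 1.44 and 1.64, where the 78 open autosomal members had 5.36 and 5.42. All X-linked genes with a promoter peak had medians of 1.56 and 1.75, and autosomal genes 3.25 and 3.50. Cells of a male carry a single X chromosome.

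Many members shared their promoter with a neighbour. In both replicates the strongest peak of 29 of the 81 open members (35.8%) also lay within 1000 bp of a start site of another protein-coding gene, beside 17.4% of all open genes in replicate 1 and 18.0% in replicate 2. For 23 members (28.4%) the neighbour ran head to head, on the other strand and away from the member, beside 13.0% and 13.5% of all open genes. The start sites nearest to the peak centre were at most 100 bp apart in 13 of these in replicate 1 and in 12 in replicate 2. Ndufa7 and Rps28, a protein of the small cytosolic ribosomal subunit, lay 10 bp apart in both. Ndufb11 and Rbm10, an RNA-binding protein, were 3 bp apart by the start sites nearest to the peak in replicate 1 and 164 bp by those in replicate 2. Ndufs1 and Eef1b2, a translation elongation factor, were 93 and 32 bp apart in the same way. Sdhd and Timm8b, a mitochondrial import chaperone, lay 98 bp apart in both, and Cox4i1 lay 101 bp from Emc8. Ndufb5 and Ndufs6 each shared a peak with a gene for a mitochondrial ribosomal protein, Mrpl47 and Mrpl36. Members with a shared peak had median signals of 5.12 and 5.07, and the 52 with a peak of their own 5.31 and 5.42.

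Most strongest peaks sat on the start site: in 64 of the 81 members (79.0%) the peak centre was within 100 bp of it in both replicates, beside 58.5% of all genes open in both. In 5 members it was over 300 bp away in at least 1 replicate, and each of these peaks also lay within 1000 bp of a neighbour's start site. The strongest peak near Ndufa11 was 737 bp upstream, at the start of Vmac, and Ndufa11 had a second peak at its own start site with 4.12 and 4.66, where the strongest had 6.46 and 7.65. For Atp5j the strongest peak (4.05 and 3.99) lay 443 bp into the gene in replicate 1, near the start of Gabpa, which encodes the ETS factor named above, and the peak at its own start site had 2.09 and 2.50. For Atp5f1 the one peak (6.22 and 6.37) was 729 bp into the gene in replicate 1, near the start of Wdr77. Ndufa13 had 2 strong peaks, 752 bp upstream and 868 bp into the gene in replicate 1, with 7.73 and 7.29. In replicate 2 the second was the higher, so Ndufa13 is the 1 member whose strongest peak changed place. Near its start site it had only 0.548 and 0.727. For Uqcrh the strongest peak was 329 bp upstream, with 4.75 and 5.36, and the peak at the start site had 3.55 and 3.39. With the peak nearest to a start site in place of the strongest, the members' median signal was 5.10 and their median percentile 73.6, as means of both replicates; this alternative was added after the data were seen.

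Few members had open chromatin inside the gene. A peak in the gene body away from all start sites was found in 27 of 84 members (32.1%) in replicate 1, 20 (23.8%) in replicate 2 and 16 (19.0%) at the same place in both. Over all genes the shares were 50%, 41.5% and 38.7%. Gene length, which sets how much room a gene has for such peaks, was not matched. Sdhc, in which 3 such peaks were found in both replicates, had the most, and those with 2 included Atp5g2, Cox6c, Ndufa7 and Sdhb. Peaks found in both replicates were in Sdhc, 21098 bp in, with 2.21 and 1.46, in Ndufa7, 2468 bp in, with 2.11 and 1.67, and in Sdhb, 3587 bp in, with 1.97 and 1.77. All of these were below the promoter peak of the same gene. Runs of weak peaks appeared in 1 replicate alone: Ndufb9 had 6 in replicate 2, between 0.134 and 0.296, and Atp5o 5, between 0.129 and 0.252, and neither had one in replicate 1. Ndufs4 had 8 in replicate 1 and 1 in replicate 2.

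Motifs were searched on both strands in a window reaching 150 bases to either side of the centre of the strongest promoter peak of replicate 1, for the 81 members and the 13627 genes open in both replicates. The words were CGCATGCG or CGCACGCG for NRF1, CCGGAAG for ETS factors, AAGATGGCG for YY1, TNAAGGTCA for the oestrogen-related receptors (ERR, N is any base), GGGGCGG for the GC box of SP factors, TGACGTCA for the cAMP response element (CRE), CACGTG and CAGCTG E-boxes, CCAAT, CTACAATTC for ZNF143 and THAP11, TGANTCA for AP-1, TATAAA, and MEF2. Of the words spelled out here none contains another, but a MEF2 match can contain TATAAA. A match is a description of the letters and not a measured binding site, and it was counted under a footprint where they shared at least 1 base.

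The NRF1 word stood in 17 of the 81 members (21.0%), beside 9.64% of all genes, and under a footprint in both replicates in 16 (19.8%), beside 7.49%. Of the promoters that hold it, 94.1% of members (16 of 17) and 77.7% of all genes (1021 of 1314) had it under a footprint in both. The members' peaks were also higher and held more footprints in the median, and the part of this was not tested. The 17 were 7 of complex V (Atp5c1, Atp5d, Atp5g2, Atp5j, Atp5k, Atp5l and Atp5o), 5 of complex I (Ndufa13, Ndufa6, Ndufa7, Ndufa8 and Ndufb4), 1 of complex II (Sdhd), 2 of complex III (Uqcr11 and Uqcrc1) and 2 of complex IV (Cox6a1 and Cox6c). Atp5k was the one without a footprint in both, since it had one in replicate 2 only. The match of Atp5j lay 384 bp into the gene, at the peak of Gabpa, and the 3 matches of Ndufa13 lay 625 to 777 bp upstream. The size of the excess turned on the window: from 250 bases before to 50 after the start site, 10 members (12.3%) and 8.86% of all genes held the word.

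The YY1 word stood in 10 members (12.3%, beside 3.65% of all genes) and under a footprint in both replicates in 3 (3.70%, beside 1.45%). Of its 11 matches 8 lay within 50 bp of a start site, as did 14 of 24 ETS, 23 of 42 GC box and 8 of 19 NRF1 matches. The window searched was centred on the peak, and most peaks sat on the start site. That of Ndufc1 was 35 bp into the gene, as in the stretch printed above, and that of Ndufa2 was 38 bp in. In the window fixed on the start site 5 members (6.17%) and 2.99% of all genes held it. The ETS word stood in 20 members (24.7%, beside 18.7%) and under a footprint in both in 9 (11.1%, beside 9.08%). With the whole ETS word inside a footprint in both replicates, 8 members were left, beside 560 of 13627 genes. The ERR word was rare: 3 members (Atp5g3, Ndufb4 and Sdhd; 3.70%, beside 0.448%) held it, and 0 had it under a footprint in both replicates, beside 0.0587% of all genes. At least 1 of these 4 words stood in 40 members (49.4%) and in 29.0% of all genes. In Atp5j and Sdhd 3 of the 4 stood together (2.47%, beside 0.132%). Those of Atp5j lay 384 to 469 bp into the gene, all at the peak near the start of Gabpa. Under a footprint in both replicates were only NRF1 and ETS in Atp5j and NRF1 in Sdhd.

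**Figure D4:**
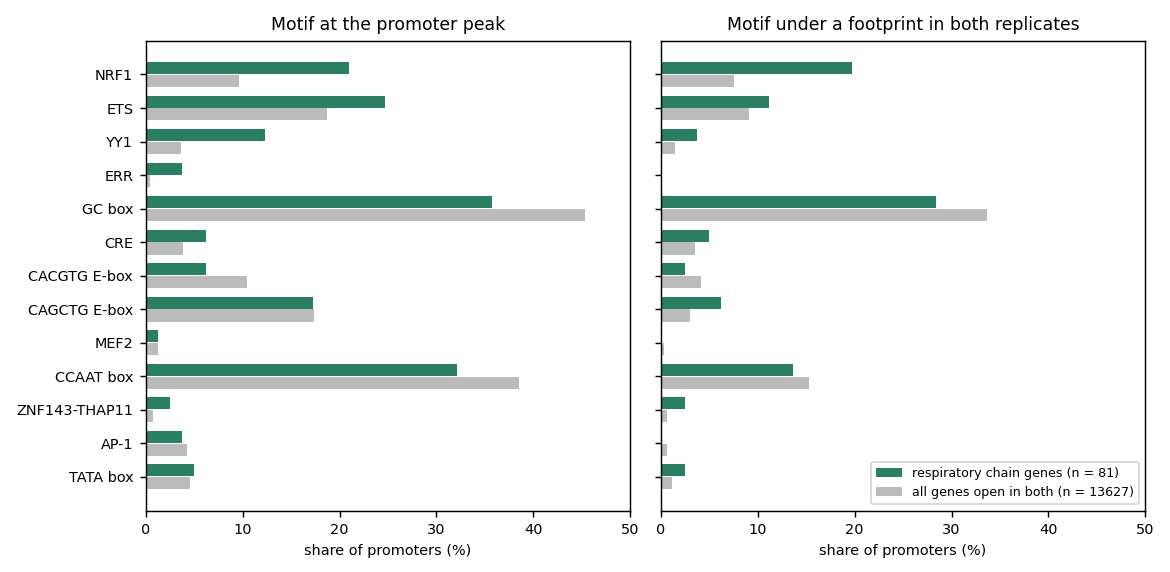
Share of promoters (x axis, percent) with each motif within 150 bases of the centre of the strongest peak (left) and with it under a footprint in both replicates (right). Green bars are the 81 open members and grey bars the 13627 genes open in both; the NRF1 bars are 21.0% against 9.64% on the left and 19.8% against 7.49% on the right.

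Of the words of general promoters, the GC box and the CACGTG E-box had lower shares in the members than in all genes, and CCAAT had no single direction. The GC box stood in 29 members (35.8%, beside 45.3%) and under a footprint in both in 23 (28.4%, beside 33.7%). CCAAT stood in 26 (32.1%, beside 38.6%), and under a footprint in both in 11 (13.6%, beside 15.3%). From 250 bases before to 50 after the start site the order turned, with CCAAT in 32 members (39.5%, beside 38.0%), as it did under a footprint of replicate 1 (21.0%, beside 19.5%). The CACGTG E-box stood in 5 (6.17%, beside 10.4%) and under a footprint in both in 2, Ndufv1 and Uqcrq (2.47%, beside 4.09%). The members' GC content, a median of 59.8%, was also lower than the 63.8% of all genes open in both, and its part in these shares was not tested. CRE stood in 5 members (6.17%, beside 3.82%), and 4 of them, Ndufa10, Ndufa11, Ndufb2 and Uqcrfs1, had it under a footprint in both (4.94%, beside 3.47%). The word of ZNF143 and THAP11 stood in Atp5d and Uqcr10 (2.47%, beside 0.726%), under a footprint in both replicates in each (2.47%, beside 0.587%). AP-1 stood in 3 members (3.70%, beside 4.24%) and in 0 under a footprint in both, beside 0.653%. Its order also turned, to 6.17% of members beside 4.34% in the window on the start site and 9.88% beside 8.23% with 300 bases on either side of the peak centre.

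Of the words of muscle and TATA promoters, the CAGCTG E-box bound by myogenic factors stood in 14 members (17.3%, beside 17.4%) and under a footprint in both replicates in 5 (6.17%, beside 2.99%). These 5 were Atp5b, Cox4i1, Ndufa11, Ndufb10 and Ndufb3, and the muscle forms Cox6a2 and Cox8b held the word with a footprint in replicate 1 only. A MEF2 match stood in 1 member, Cox6a2 (1.23%, beside 1.28%), 23 bp upstream of its start site, with a footprint in replicate 1 and none in replicate 2, so 0 members had it in both, beside 0.308% of all genes. TATAAA stood in 4 members (4.94%, beside 4.59%) and under a footprint in both in Cox8b and Ndufa7 (2.47%, beside 1.15%). The match of Cox8b lay 7 bp into the gene on its own strand. That of Ndufa7 lay 50 bp upstream on the opposite strand.

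**Figure D5:**
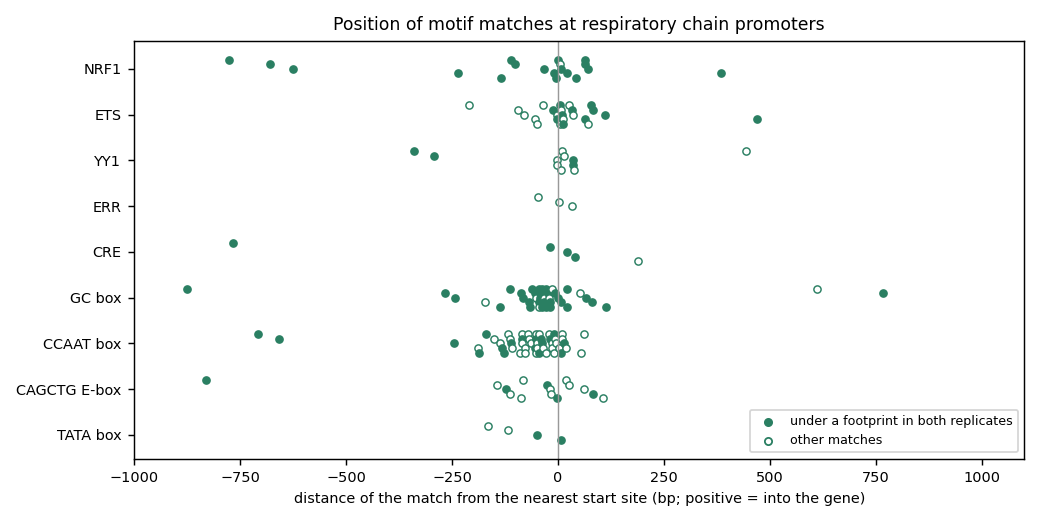
Distance of each motif match from the nearest start site of the member (x axis, bp, positive into the gene), for 9 of the motifs (rows). Filled points lie under a footprint in both replicates and open points do not. Of the 11 YY1 matches 8 lie within 50 bp of the start site, of the 24 ETS matches 14 and of the 19 NRF1 matches 8. The NRF1 matches more than 500 bp away are the 3 of Ndufa13.

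Footprints were also compared between the replicates. Of 385 footprints in the strongest peaks of the 81 members in replicate 2, 316 (82.1%) overlapped a footprint of replicate 1, and 76.1% did over all genes open in both. The members' peaks were also higher, and the part of peak height was not tested. The median member had 5 footprints in its strongest peak in each replicate, and the median open gene 4.

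The genes that build, feed and regulate the chain were also open. Of 72 assembly factors, carriers and regulators, 70 carried a promoter peak in both replicates, beside 62.4% of all genes, with median signals of 5.39 and 5.36. The 2 exceptions were Sdhaf1, a complex II assembly factor, and Cyct, the testis form of cytochrome c. The somatic cytochrome c gene Cycs had 9.46 and 10.6, and Etfa, a subunit of the electron transfer flavoprotein, 5.93 and 6.38. Among complex I assembly factors, all 15 open, the highest were Ndufaf8 (11.1 and 13.9) and Tmem126b (9.24 and 11.1). Among those of complex IV, all 23 open, Pet100 had 8.45 and 9.98 and Cox18 8.78 and 9.01. Bcs1l, which inserts the Rieske protein into complex III, had 9.58 and 10.3, and Lyrm7, a chaperone of the same protein, 7.47 and 7.63. Atpaf2 (8.75 and 8.65) and Atpif1 (3.12 and 2.97) were the highest for complex V, and Sdhaf3 (5.90 and 5.96) and Sdhaf4 (3.47 and 3.55) for complex II. The 4 genes of the complex V group had the lowest median percentiles of these groups, 41.9 in replicate 1 and 38.1 in replicate 2. Of the 14 regulators, the highest were Esrra, the oestrogen-related receptor alpha, with 14.0 and 14.8 at percentiles 99.8 and 99.6, and Sp1 with 10.2 and 10.4. Others of the regulators, named after their values were seen, were low: the receptors Esrrb (percentiles 18.4 and 11.8) and Esrrg (15.1 and 13.2) and the coactivator Ppargc1a (25.6 and 20.2).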

How the data were processed

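DNase-seq of 2 samples of gastrocnemius was analysed from the deposited files. Per the labels, coordinates are on mm10, and the descriptions deposited with each sample say that its filtered alignments gave its peaks, sites and footprints. The aligner and the callers are not given in the sources used here. The signal of each peak is the deposited value of column 7, whose scale is not stated. The deposited site files hold false discovery rates (adjusted p-value type values) under 0.05, and the deposited footprint files a constant value of 0.01, a threshold in the same p-value column.

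The larger of 2 peak lists per sample was used. An overlap was 1 bp or more, and genes were 1 record per symbol. Scripts ran in Python 3.11.15 with numpy 2.4.6 and were tested on simulated peaks and motifs. The RefSeq promoter table matched the reference genome (32851 of 32851 sequences identical), so sequence was read from it. No test was run, since the 2 samples form 1 group, and the value of each replicate is given in place of a mean.

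The 84 members, the marker and partner lists, the motifs and the rule for named genes were chosen with earlier results of these data known. Named with values were the 3 highest members of each complex, closed members, sister genes, the members with most shared body peaks, the 5 with the largest difference in percentile, genes sharing a peak with these, and the 2 highest and the closed genes of each partner group; other members were named after their values were seen, and some genes are not reported here by name. The alternatives were other promoter windows, the 5'-most start site alone, the stricter list, the same number of peaks in both samples, other motif windows, a whole match inside a footprint, and each replicate alone.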

Additional observations from a re-analysis of the deposited data

How the results depend on the processing

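No paired analysis was possible because there is only 1 group and no comparison between groups. Of 114 values under alternatives, 86 stayed within 1.5 times for a count or within the spread between replicates for a median. The medians of each replicate alone had to stay within that spread, which comes from the same 2 values. They are counted among the 86 but show nothing about stability. The members with a promoter peak were 80 or 81 under every alternative run, beside 12600 to 14340 of all 21829 genes. The median signal of members (5.32 as the mean of both replicates, over all genes 3.28) was 5.10 with a promoter window of 500 bp, 5.12 where only the 5'-most start site counted and 5.10 with the peak nearest to a start site. The median percentile (71.4) was 69.2, 69.6 and 73.6 in these, and 69.1 with the strict list. Members with a body peak in both replicates were 16, beside 8453 of 21829 genes. They were 25 with 2 kb on both sides (9493 of all genes) and 10 in the strict list (6580). In 1 replicate alone they were 20 to 27 (9061 to 10906 of all genes). With the window from 250 before to 50 after the start site, 10 members held NRF1 (17 at the peak), 5 YY1 (10) and 5 AP-1 (3). The shares of all genes in that window are given above. With 300 bases on either side of the peak centre, 16 held YY1 (19.8%, beside 5.03% of all genes) and 5 ERR (6.17%, beside 1.44%). In that window 9 held CACGTG (11.1%, beside 15.4%), 8 AP-1 (9.88%, beside 8.23%) and 8 TATAAA (9.88%, beside 10.5%). With the whole match inside a footprint in both replicates, 1 member was left for YY1, beside 74 of the 13627 genes. For CAGCTG 3 were left (183 of all genes), for CCAAT 7 (1205), for the ZNF143 word 1 (31) and for TATAAA 1 (78). In 1 replicate alone, members with a YY1 match under a footprint were 4 to 5 (4.94% to 6.17%, beside 1.89% to 1.93% of all genes). For CAGCTG they were 5 to 8 (6.17% to 9.88%, beside 4.41% to 4.60%). For CCAAT they were 14 to 17 (17.3% to 21.0%, beside 18.1% to 19.5%). ERR had 0 to 1 (all genes 0.0734% in each replicate) and MEF2 0 to 1 (all genes 0.433% to 0.543%). The cause of these moves was not tested, other than that a wider window holds more bases. Depth is unknown, and replicate 1 has more peaks and footprints than replicate 2, which bears on what can be found in both.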
